A study of Mus musculus with 12 samples.

Results

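Immediate early genes were described here as a set of 9, Fos, Fosb, Junb, Egr1, Egr2, Nr4a1, Ier2, Ier3 and Dusp1, in the spinal cord of young and aged mice before and after contusion injury. Each gene was represented by probes annotated to it alone, and where there were several, the probe with the highest mean signal over the 12 arrays was used. All 9 had such a probe among the 18194 genes measured, and 7 of them were among the 10511 genes whose mean signal exceeded 50 in at least 1 group. Fosb and Junb stayed under that cutoff.

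Female C57BL/6J mice, young (2 to 3 months old) or aged (15 to 18 months old), were either left intact or given a contusion at the Th9 level, and the injured cords were taken 9 days later after perfusion with heparinized saline. Each of the 4 groups (young and aged, intact or injured) had 3 arrays of RNA from the Th9 segment of the cord. The labels name no transgene or drug treatment. By the methods, injury was made under ketamine and xylazine, and injured and naive mice were anesthetized before perfusion. No sham operation of the intact mice is described. The arrays were Affymetrix mouse genome chips, read as MAS 5.0 signals on a linear scale. The extraction protocol gives 3 mice for each group, which matches the number of arrays; the array labels carry no mouse numbers.

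Immediate early genes are transcribed within minutes of a stimulus from factors that are already present in the cell, with no need for new protein. Growth factors, calcium entry, cytokines and mechanical stress reach them through the MAP kinase, SRF and CREB pathways. Many of their products are transcription factors that act on later genes, and others shut the signal off again. In the nervous system they are best known as markers of recently active neurons, but glia, macrophages, endothelial cells and fibroblasts also express them.

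The bases before the transcription start are shown for members that were higher after injury (Fos, Junb, Ier3, Egr2) and for members that did not pass the test (Dusp1, Nr4a1), because the pathways above can act through elements in this region. The sequences are from RefSeq on GRCm38.p6, 5′ to 3′ on the gene's own strand, and capitals mark the matches described below. The 250 bases before the start lie at chr12:85473640-85473889, plus strand, for Fos, at chr8:84978749-84978998, minus strand, for Junb, at chr17:35821463-35821712, plus strand, for Ier3, at chr17:26508473-26508722, minus strand, for Dusp1, and at chr15:101266596-101266845, plus strand, for Nr4a1. For Egr2, which has 5 listed starts, 30 bases at chr10:67537787-67537816, plus strand, are given around a CArG box before the third.
Fos: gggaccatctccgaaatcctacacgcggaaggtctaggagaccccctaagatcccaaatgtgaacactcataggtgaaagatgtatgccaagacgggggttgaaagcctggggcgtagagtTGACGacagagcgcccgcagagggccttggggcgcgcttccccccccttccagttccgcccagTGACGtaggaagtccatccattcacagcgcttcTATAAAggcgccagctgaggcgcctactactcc
Junb: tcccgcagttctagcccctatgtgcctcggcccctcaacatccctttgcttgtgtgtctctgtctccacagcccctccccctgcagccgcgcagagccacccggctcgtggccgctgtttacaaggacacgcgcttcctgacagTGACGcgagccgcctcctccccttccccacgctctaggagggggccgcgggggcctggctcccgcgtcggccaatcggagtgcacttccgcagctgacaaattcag
Ier3: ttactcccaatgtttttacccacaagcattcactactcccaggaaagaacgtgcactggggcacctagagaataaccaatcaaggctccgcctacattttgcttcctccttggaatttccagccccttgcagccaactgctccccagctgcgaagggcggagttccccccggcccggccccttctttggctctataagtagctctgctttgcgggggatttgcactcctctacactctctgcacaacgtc
Dusp1: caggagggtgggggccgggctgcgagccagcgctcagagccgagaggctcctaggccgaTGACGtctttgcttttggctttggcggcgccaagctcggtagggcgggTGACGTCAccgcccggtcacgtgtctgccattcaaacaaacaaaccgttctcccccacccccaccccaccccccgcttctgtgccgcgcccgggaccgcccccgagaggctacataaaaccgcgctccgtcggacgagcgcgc
Nr4a1: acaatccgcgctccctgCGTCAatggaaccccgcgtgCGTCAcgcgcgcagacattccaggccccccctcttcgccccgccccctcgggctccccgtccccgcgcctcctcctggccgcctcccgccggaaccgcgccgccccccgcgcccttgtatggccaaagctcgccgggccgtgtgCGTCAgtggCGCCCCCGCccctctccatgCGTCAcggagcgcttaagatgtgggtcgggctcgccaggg
Egr2: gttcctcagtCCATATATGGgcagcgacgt

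The letters searched, on both strands, were the cyclic AMP response element (CRE, TGACGTCA) and its half-site (TGACG), which CREB binds, the AP-1 site (TGANTCA) of Fos and Jun proteins, the EGR site (GCGNGGGCG), the TATA box (TATAAA) and the CArG box of SRF, which is given by name. A full CRE also holds the half-site on each strand. Fos had 2 half-sites, the nearer at 66 to 62 bases before the start, and a TATA box at 33 to 28 bases. Dusp1 had a full CRE at 143 to 136 bases, a motif found in 1.55% of 32851 promoters of the same length. Nr4a1 had 4 half-sites and an EGR site, Junb had 1 half-site, and Ier3 had none of the motifs. The half-site was present in 17.8% of all promoters, the EGR site in 4.7%, the TATA box in 12.4%, the AP-1 site in 6.75% and the CArG box in 1.47%. These matches describe letters only, and genes that rose after injury and genes that did not were both among those with a CRE half-site. Bases outside the 250 before a start were not searched, so a motif not found here, such as the CArG box for Fos, can lie farther away.

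**Figure D1:**
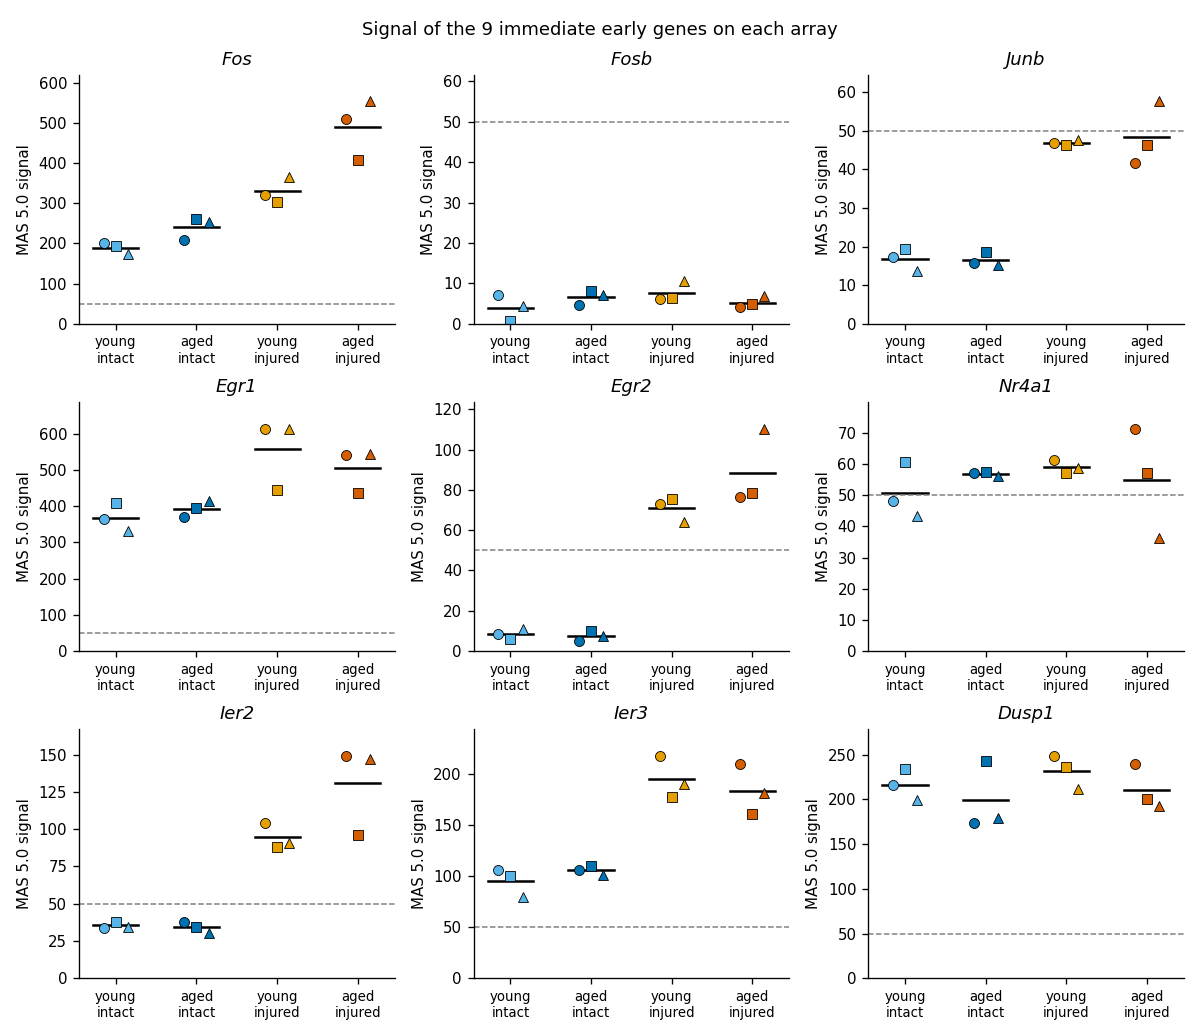
MAS 5.0 signal (y axis, linear, from 0) of each of the 9 genes in the 4 groups (x axis). Circles, squares and triangles are replicates 1, 2 and 3, black bars are group means, and the dashed line is the cutoff of 50. Fos, Egr1, Egr2, Ier2, Ier3 and Junb lie higher in the injured than in the intact groups at both ages, whereas Fosb, Dusp1 and Nr4a1 overlap.

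In young mice, 5 of the 7 members tested were higher in the injured than in the intact cord, and none was lower. Over all genes tested, 33.9% were higher and 68.0% changed in either direction, so a call in this comparison was common. In aged mice the same 5 were higher, against 35.6% of all genes higher and 75.5% changed in either direction. The median log2 difference of the 7 was 0.80 in young and 0.79 in aged mice, beside -0.0048 and -0.042 over all genes tested. Egr2 and Ier2 passed the signal cutoff only through their injured groups, so their calls and their part in the median are not independent of that selection. Without the cutoff both were also called higher at each age. Groups did not overlap for 6 of all 9 members at each age (the 5 called and Junb), with the injured arrays higher. Of the genes tested, 37.5% in young and 36.7% in aged mice were separated in that direction. The study describes cutoffs of a ratio over 2 and a mean over 50 for young against aged injured cords. Applied here to injury, they passed 3 members in young mice (Egr2, Ier2 and Ier3) and 3 in aged mice (Fos, Egr2 and Ier2). Of all genes, 13.0% and 15.5% passed. The tissue holds many cell types, and a change in the number of cells of a type and a change in RNA per cell cannot be told apart in these samples.

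Fos encodes the partner of Jun proteins in the AP-1 transcription factor. Its signals were 200.3, 194.6 and 173.8 in young intact cords and 319.8, 303.7 and 366.2 in young injured cords. In aged mice they were 209.6, 260.4 and 253.3 when intact and 509.8, 407.8 and 553.2 after injury. Every injured array was above every intact array, and the 4 groups followed one another without overlap, with young intact cords lowest and aged injured cords highest. The log2 difference after injury was 0.80 ± 0.13 (SE, n = 3 against 3) in young mice (limma, adjusted p = 0.0002816) and 1.02 ± 0.13 in aged mice (limma, adjusted p = 3.588e-05).

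Fosb and Junb encode further AP-1 subunits. Junb signals were 17.3, 19.5 and 13.7 in young intact, 15.8, 18.7 and 15.3 in aged intact, 46.9, 46.2 and 47.6 in young injured and 41.7, 46.2 and 57.6 in aged injured cords. All injured arrays were above all intact arrays, but only 1 of them, aged injured replicate 3, exceeded 50, so Junb entered the test only without the cutoff. It was then higher after injury by 1.49 ± 0.19 on the log2 scale in young mice (limma, adjusted p = 6.287e-05) and by 1.54 ± 0.19 in aged mice (limma, adjusted p = 3.418e-05). Because both group means were under 50, no fold is given. Its highest group mean of 48.5 was the nearest below the cutoff, and that of Nr4a1, 59.1, the nearest above it. Fosb lay between 0.6 and 10.7 on all 12 arrays, and its groups overlapped.

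Egr1 and Egr2 are zinc finger transcription factors that bind GC-rich sites; Egr2 is also a regulator of myelination in Schwann cells and is expressed by macrophages. Egr1 signals were 365.1, 409.3 and 330.6 in young intact and 614.4, 445.9 and 613.3 in young injured cords. In aged mice they were 370.8, 395.5 and 414.0 intact and 541.6, 435.3 and 543.2 injured. Injured arrays were above intact ones at each age, with replicate 2 the lowest in both injured groups. The log2 difference was 0.59 ± 0.14 in young (limma, adjusted p = 0.003059) and 0.36 ± 0.14 in aged mice (limma, adjusted p = 0.03323). The call in aged mice was lost when any 1 of 4 arrays was left out, with an adjusted p of 0.09817 without aged intact replicate 1, 0.06644 without aged intact replicate 2, 0.07537 without aged injured replicate 1 and 0.1043 without aged injured replicate 3.

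Egr2 was close to undetected in intact cords, at 8.2, 5.8 and 11.1 in young and 5.2, 9.9 and 7.3 in aged mice. After injury it was 72.9, 75.4 and 64.2 in young and 76.4, 78.7 and 110.4 in aged mice. No injured array came near an intact one. With the intact mean set to the cutoff of 50, Egr2 was at least 1.42-fold higher after injury in young and at least 1.77-fold higher in aged mice (limma, adjusted p = 7.925e-06 and 2.127e-06). The log2 differences of 3.13 and 3.60 depend on signals far under the cutoff and are no measure of the fold. The second Egr2 probe was likewise higher after injury, with signals from 48.0 to 86.0 in injured and from 1.1 to 12.8 in intact cords.

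Ier2 and Ier3 are short immediate early response genes; the product of Ier3 modulates cell survival. Ier2 was 34.0, 37.9 and 34.4 in young intact and 37.9, 34.1 and 30.4 in aged intact cords. It was 104.4, 88.3 and 90.9 in young injured and 149.2, 96.2 and 146.8 in aged injured cords. Injured and intact arrays were far apart, and it was at least 1.89-fold higher in young and at least 2.61-fold higher in aged mice (limma, adjusted p = 3.501e-05 and 2.866e-06).

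Ier3 was 106.4, 99.8 and 79.9 in young intact and 218.1, 177.6 and 190.8 in young injured cords. In aged mice it was 105.8, 110.5 and 101.6 intact and 210.2, 160.9 and 181.3 injured. The injured arrays were again all higher. The log2 difference was 1.04 ± 0.13 in young (limma, adjusted p = 5.059e-05) and 0.79 ± 0.13 in aged mice (limma, adjusted p = 0.0002354).

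Dusp1, a phosphatase that turns off MAP kinases, and Nr4a1, an orphan nuclear receptor, did not pass the test. Dusp1 was 216.0, 233.8 and 199.1 in young intact, 248.8, 236.5 and 211.3 in young injured, 174.2, 243.0 and 179.8 in aged intact and 240.2, 200.3 and 192.9 in aged injured cords. The groups overlapped, and the log2 difference after injury was 0.10 (95% interval -0.20 to 0.40) in young and 0.095 (-0.20 to 0.39) in aged mice. Nr4a1 was 48.3, 60.7 and 43.2 in young intact, 61.3, 57.1 and 58.8 in young injured, 57.3, 57.6 and 56.1 in aged intact and 71.4, 57.1 and 36.2 in aged injured cords. Aged injured replicates 1 and 3 held its highest and lowest signals of all 12 arrays, and the log2 difference was 0.23 (-0.24 to 0.71) in young and -0.11 (-0.58 to 0.36) in aged mice.

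**Figure D2:**
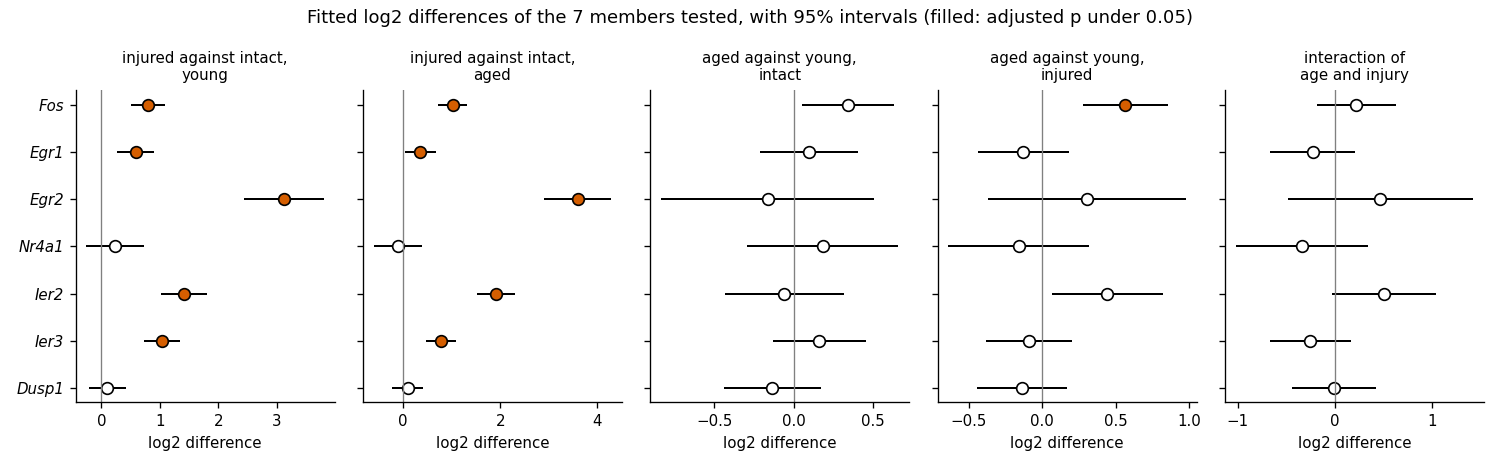
Fitted log2 differences (x axis, scale differing between panels) of the 7 members tested (y axis) in the 5 comparisons, with lines for 95% intervals and filled points for an adjusted p under 0.05. Fos, Egr1, Egr2, Ier2 and Ier3 are filled in both injury panels, and Fos is the one filled point in the age panels.

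In intact cords 0 of the 7 members tested were called between aged and young mice by limma, 1 had an unadjusted p under 0.05, and 0.809% of all genes were called. That member was Fos, 0.34 higher on the log2 scale in aged mice (95% interval 0.061 to 0.63, adjusted p = 0.3575 by limma), with aged arrays all above young ones. Groups that do not overlap were frequent, at 25.5% of all genes.

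Among injured cords Fos was higher in aged than in young mice, and it was the 1 member of 7 called. Over all genes tested, 8.99% were called, 4.41% higher in aged mice. The aged mean was 490.3 against 329.9 in young mice, 1.49-fold (log2 difference 0.56 ± 0.13, limma, adjusted p = 0.02601), and all 3 aged arrays were above the young ones. At that ratio no member passed the cutoffs of the study, which 1.30% of all genes passed in this direction. The call was lost without young injured replicate 1 (adjusted p = 0.07148), young injured replicate 2 (0.08381) or aged injured replicate 3 (0.06997), and when the injured arrays were fitted alone (0.1453). The share of all genes called also fell in these fits, to 2.82%, 2.81%, 4.55% and 0% in the same order, while the log2 difference of Fos lay between 0.47 and 0.56.

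Ier2 had a mean of 130.7 in aged and 94.5 in young injured cords, with overlapping groups because aged injured replicate 2 lay at 96.2 (log2 difference 0.44, 95% interval 0.074 to 0.81, limma, adjusted p = 0.1087). Without that array the difference was 0.65 and was called (limma, adjusted p = 0.009259), as were 29.1% of all genes. Egr2 groups did not overlap, yet its difference of 0.30 (-0.36 to 0.97) was not called, and the second Egr2 probe gave -0.027. Groups without overlap made up 28.1% of all genes here. Egr1, Ier3, Dusp1 and Nr4a1 differed by -0.16 to -0.09 on the log2 scale, with intervals that included 0. With weights for the arrays, 4 members were called by limma's default estimate, which did not converge and called 39.9% of all genes, and 3 by an estimate gene by gene, which called 16.9%. Ier2, higher, and Nr4a1, lower, were among both. Both estimates gave the most weight to aged injured replicate 3, where Nr4a1 had its lowest signal, 36.2.

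**Figure D3:**
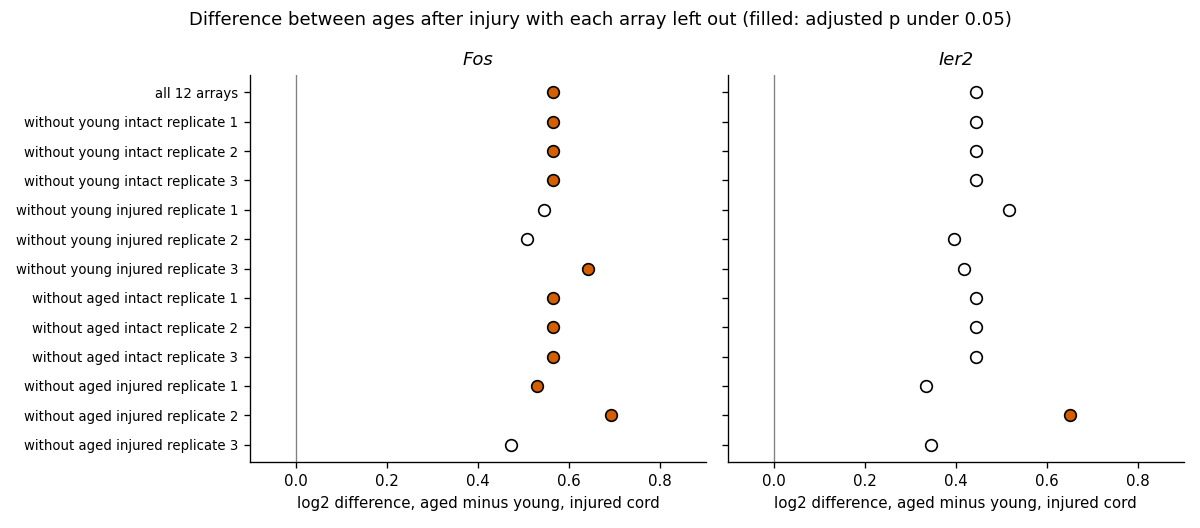
Log2 difference between aged and young injured cords (x axis) for Fos and Ier2, with all 12 arrays and with each array left out (y axis); filled points have an adjusted p under 0.05. Fos stays between 0.47 and 0.69 but loses its call without 3 of the arrays, whereas Ier2 gains one without aged injured replicate 2.

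Whether injury acted differently at the 2 ages was tested by the interaction. By limma, 0 of the 7 members tested were called, 0 had an unadjusted p under 0.05, and 0.438% of all genes were called. The estimate for Fos was 0.22 (95% interval -0.18 to 0.62) and for Egr1 -0.23 (-0.66 to 0.20). That for Ier2 was 0.50 (-0.022 to 1.02), and it was called without aged injured replicate 2 (0.71, limma, adjusted p = 0.04802), as were 4.98% of all genes.

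Replicates of a group did not move as one. In aged injured cords replicate 2 had the lowest signal for Fos, Egr1, Ier2 and Ier3, and in young injured cords replicate 2 was lowest for Fos, Egr1, Ier2, Ier3 and Nr4a1. After subtracting group means, the genes with the highest Pearson correlation with the mean of the 7 members over the 12 arrays were Piezo1, a mechanically gated channel (0.96), Spsb2 (0.96), Cnih4 (0.95), Col5a2, a fibrillar collagen chain (0.95), and Rassf1 (0.95). These were the 5 highest of 10504 genes, so they describe likeness only.

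A wider list of immediate early genes was read in the same way. Of 52 other immediate early genes listed, 50 were measured and 36 tested, of which 31 were higher and 1 lower in young mice and 27 were higher and 3 lower in aged mice. The median log2 difference was 1.11 in young and 1.36 in aged mice, and 26 genes were higher at both ages. Over all genes tested, 33.9% were higher in young and 35.6% in aged mice. Genes with both intact means under 50 passed the cutoff only through injured groups. They were Atf3, Rgs1, Fosl2, Myc, Zfp36, Nab2, Socs3, Trib1, Ptgs2, Ccn1, Thbs1 and Plaur. The counts and medians of the wider list and its classes are thus not independent of that selection. Among 11 transcription factors tested, 10 were higher in young and 7 in aged mice, and 1, Egr3, was lower in aged mice (75.4 intact, 42.0 injured). Atf3, a stress-induced factor of damaged neurons and other cells, was 13.0, 2.7 and 11.9 in young intact and 295.8, 269.2 and 364.8 in young injured cords. It was at least 6.20-fold higher in young and at least 9.37-fold higher in aged mice, where injured cords gave 475.6, 435.8 and 493.9. Fosl2, an AP-1 subunit, was at least 3.06-fold and at least 3.53-fold higher, and Klf6 rose 3.00-fold in both. Myc was at least 1.82-fold higher in aged mice.

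Of 16 feedback regulators tested, 14 were higher at each age and none lower. Among all genes tested, 33.9% were higher in young and 35.6% in aged mice. Zfp36, Nab2, Socs3, Rgs1 and Trib1 passed the cutoff only through injured groups. Rgs1, which limits G protein signalling in leukocytes, was at 4.6, 4.7 and 5.0 in young intact cords and at 182.5, 148.1 and 191.8 in young injured cords, at least 3.48-fold higher. In aged injured cords it was 618.5, 381.3 and 373.2, at least 9.15-fold higher than intact. Socs3, an inhibitor of cytokine signalling, was at least 4.88-fold higher in young mice, Dusp6, an ERK phosphatase, was 5.25-fold higher in aged mice, and Trib1 passed the test at both ages with its mean over 50 only in aged injured cords (51.6).

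Of 9 secreted and synaptic genes tested, 7 were higher and 1 lower in young mice, and 6 higher and 2 lower in aged mice. Over all genes tested, 33.9% were higher in young and 35.6% in aged mice. Ptgs2, Ccn1, Thbs1 and Plaur passed the cutoff only through injured groups. Arc, Bdnf and Nptx2 stayed under the cutoff and were not tested, and their injured arrays were all below the intact ones at each age. The balance of higher and lower genes thus depends on the cutoff. Mean signals of Bdnf, intact and injured, were 44.5 and 23.2 in young and 45.5 and 21.6 in aged mice. Those of Arc were 24.8 and 15.0 in young and 27.9 and 7.8 in aged mice. Thbs1, a matrix glycoprotein, was at least 5.50-fold higher in young and at least 4.63-fold higher in aged mice. Ccn1 was at least 2.91-fold and at least 3.49-fold higher, Ptgs2 at least 1.21-fold higher in young mice, and Plaur, the urokinase receptor, at least 2.64-fold higher in aged mice. Homer1, a synaptic scaffold, fell 1.54-fold in young and 1.76-fold in aged mice, and Vgf, a neuronal peptide precursor, fell 1.83-fold in aged mice. Neuron markers fell as well, and 4 of 9 tested were called lower in young and 9 of 9 in aged injured cords. The log2 differences of all 9 were also under 0 in young mice, from -2.12 to -0.78. Between aged and young injured cords limma called 0 of the 9, with log2 differences from -1.24 to -0.64, beside 8.99% of all genes called. For the interaction limma also called 0 of the 9, beside 0.438% of all genes. At these shares a count of 0 does not show that the groups were alike. Whether the falls of Homer1 and Vgf were tied to those of neuron markers was not tested.

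**Figure D4:**
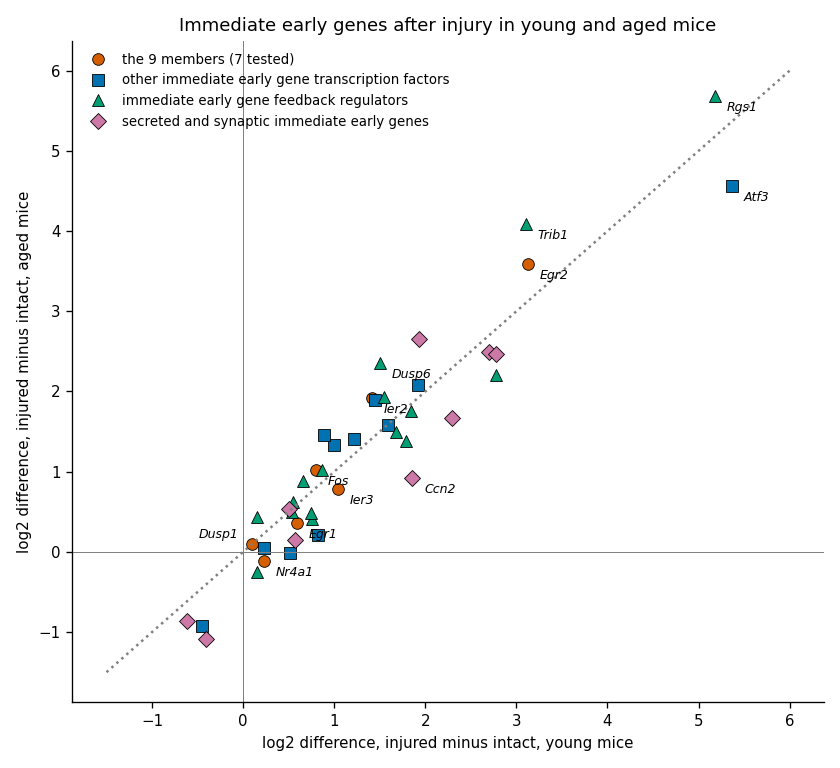
Log2 difference after injury in young (x axis) and aged (y axis) mice for the 7 members tested and 36 other immediate early genes, by class; the dotted line marks equal values. Most genes are above 0 on both axes, with Rgs1 and Atf3 farthest out and Homer1, Egr3 and Vgf below 0. Values of genes with a group mean under 50 are not folds.

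Between ages, 1 of the 36 was lower in aged intact cords, Gadd45g (102.7 or less on all 3 aged arrays, 142.0 or more on the young ones). After injury 3 were higher in aged mice, Rgs1 (2.63-fold), Plaur (1.97-fold) and Dusp6 (1.85-fold), and 4 were lower, Ccn2 (2.14-fold), Errfi1 (1.54-fold), Gadd45g (1.40-fold) and Jund (1.25-fold). Over all genes tested 8.99% were called. The groups of these 7 genes did not overlap, as was true of 28.1% of all genes. Ccn2, a matrix-associated growth regulator, was 1381.0, 1317.3 and 1768.7 in young and 896.5, 724.1 and 464.9 in aged injured cords. The count of 7 became 3 without young injured replicate 2 and 2 without young injured replicate 3. It became 12 without aged injured replicate 2 and 0 when the injured arrays were fitted alone. The share of all genes called in these fits was 2.81%, 3.97%, 29.1% and 0%, in the same order. The call of Gadd45g in intact cords was lost without any 1 of the 6 intact arrays. In those fits 0.314% to 0.399% of all genes were called, against 0.809% with all arrays. For the interaction, limma called 0 of the 36, and 6 had an unadjusted p under 0.05. Only 0.438% of all genes were called for it, so 0 of 36 does not show that these genes lacked an interaction.

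Of 22 upstream kinases and activators listed, 15 were measured and 14 tested. Of these 14, 7 were higher and 4 lower after injury in young mice, 8 were higher and 3 lower in aged mice, and 0 were called for age. Over all genes tested, 68.0% in young and 75.5% in aged mice changed after injury in either direction, so such calls were common. For age the share was 0.809% in intact and 8.99% in injured cords, so 0 of 14 does not show that age had no effect. Elk3 and Mrtfa passed the cutoff only through injured groups. Elk3, an SRF partner, was at least 4.21-fold higher in young and at least 5.84-fold higher in aged mice, and Rps6ka3, a kinase of CREB, 1.93-fold and 2.76-fold higher. Crem was at least 1.69-fold higher in young mice and Mrtfa at least 1.52-fold higher in aged mice. Mapk9 fell 3.56-fold and 3.74-fold, Mapk8 2.49-fold and 3.22-fold, and Braf 1.88-fold and 2.08-fold.

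Cell-type markers moved alongside these genes, and their part in the results was not tested. All 10 microglia and macrophage markers were higher after injury at both ages. Their summed signal ranged from 2815.7 to 3110.9 in young intact, 5063.5 to 5160.0 in aged intact, 22043.7 to 27853.8 in young injured and 26943.1 to 30488.5 in aged injured cords. Of these markers 7 were higher in aged than young intact cords and 4 in aged than young injured cords. Fibroblast and meningeal markers were higher for 8 of 8 in young and 6 of 8 in aged injured cords. Of 5 mural cell markers tested, 4 were higher after injury at each age. Of 8 astrocyte markers, 2 were lower and 2 higher after injury in young mice, 6 were lower in aged mice, and 4 were lower in aged than in young injured cords. Of 7 oligodendrocyte markers tested, 2 were lower after injury in young and 5 in aged mice, and 1 was lower in aged than in young injured cords. Neuron markers summed to 20096.5 to 21265.4 in intact, 7042.8 to 11032.9 in young injured and 1474.1 to 10247.6 in aged injured cords, the lowest value being aged injured replicate 1. Aged injured arrays were farther apart than those of other groups, with a mean distance of 58.6 against 26.8 to 31.4. None of 6 T cell markers passed the cutoff, and the cholinergic neuron marker Chat was near 0 in all groups. Of 8 acute heat shock genes, 6 were lower and 1 higher in young and 5 lower and 2 higher in aged injured cords. Of 10 clock genes tested, 4 were lower and 3 higher in young and 6 lower and 0 higher in aged injured cords. Beside all these counts, 68.0% of all genes in young and 75.5% in aged mice were called after injury. Between ages 0.809% were called in intact and 8.99% in injured cords.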

How the data were processed

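Spinal cord RNA of 12 samples was hybridised to Affymetrix mouse genome arrays. The authors converted the scans to intensity values, MAS 5.0 signals on a linear scale, and deposited 1 column per array; the mean without the lowest and highest 2% of probes is 100 on each. Array number limits the precision. Groups were taken from the sample labels. Of 45101 probes, 34958 named 1 gene, 932 several and 9211 none, and the last 2 kinds were not used. Gene names came from the platform annotation.

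Log2 signals of 10511 genes with a mean over 50 in at least 1 group were fitted with limma 3.58.1 (R 4.3.3, group means, trend) and p-values adjusted by Benjamini-Hochberg over all of them, with 0.05 as threshold. The fit was tested on simulated data. Folds are ratios of group means; a mean under 50 was set to 50, giving "at least". The 9 members were named throughout; from each other list the called genes were named, up to 3 per direction by size. Members, lists and motifs were chosen with earlier results of these data known, and the CRE half-site was added to the motif search after a first search had been seen. Promoters were matched by symbol in the RefSeq table, where 7 members were used; Egr1 and Ier2 were not used here. Alternatives changed the cutoff, variance trend, normalization, pseudocount (16), array weights, probes, replicate block and arrays. limma's default array weights did not converge, and weights estimated gene by gene were added after the calls under the default had been seen; both are reported.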

Additional observations from a re-analysis of the deposited data

How the results depend on the processing

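Of 753 values of members under the alternatives, 734 kept their side of the threshold, 8 lost a call and 11 gained one. The sign turned in 16 of the 734, none of them called in either fit. Replacing the test by the study's cutoffs (ratio over 2 and mean over 50) gave 3 members after injury in young and 3 in aged mice. It gave 0 members for age in injured cords. Of other immediate early genes it gave 17 in young mice after injury, and 0 and 2 for age in intact and injured cords. Among all genes, 13.0% passed as higher after injury in young and 15.5% in aged mice. For age in injured cords, 1.30% passed as higher in aged mice. The study describes these cutoffs for the injured cords of the 2 ages. Fitting only the arrays compared gave 0 members and 0 other genes for age in injured cords and 3 other genes in intact cords. The share of all genes called in these fits was 0% in injured and 4.70% in intact cords.

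limma's default array weights did not converge and gave aged injured replicate 3 a weight of 63.6. Under them 4 members were called for age in injured cords (Fos, Egr2 and Ier2 higher, Nr4a1 lower) and 2 for the interaction, while the share of all genes called rose from 8.99% to 39.9% and from 0.438% to 20.0%. They gave 4, 16 and 5 other immediate early genes for age in intact cords, age in injured cords and the interaction. For age in intact cords 7.34% of all genes were called. Weights estimated gene by gene, which were added after these calls had been seen, ran from 0.132 (aged injured replicate 1) to 2.97 (aged injured replicate 3). They gave 3 members for age in injured cords (Fos and Ier2 higher, Nr4a1 lower), with 16.9% of all genes called. They gave 4 other genes for age in intact cords (6.58% of all genes) and 3 for the interaction (7.87%). Nr4a1 was also called lower after injury in aged mice under both kinds of weights (-0.65 and -0.54). Both kinds gave aged injured replicate 3 the most weight. Nr4a1 was at 36.2 on that array, against 71.4 and 57.1 on replicates 1 and 2, so these calls lean on 1 array. The cause of the difference between these arrays was not tested.

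Leaving out each array in turn gave 0 to 2 members for age in injured cords, 0 without young injured replicates 1 and 2 or aged injured replicate 3 and 2 without aged injured replicate 2, and 0 to 1 for the interaction. For other genes it gave 0 to 3 for age in intact cords, 2 to 12 in injured cords (2 without young injured replicate 3, 3 without young injured replicate 2, 12 without aged injured replicate 2) and 0 to 1 for the interaction. The 3 in intact cords came without aged injured replicate 1, and 0 without any 1 of the 6 intact arrays. Over all genes, 2.07% were called in intact cords without aged injured replicate 1. In injured cords the share ran from 2.81% without young injured replicate 2 to 29.1% without aged injured replicate 2.

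Samples with the same number did not deviate together in 16 of 18 pairs, so the numbers were not taken as pairs. The other 2 were replicates 1 and 2 of young with aged injured cords (r = 0.595 and 0.667, and 0.0145 for replicate 3), the groups of the Fos age call. With the replicate block 1 member was called for age in injured cords.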
